A study of Mus musculus with 4 samples.

Results

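Messenger RNA of 10 genes of the TGF-β and activin pathway was followed in nasal process (NP) tissues of E11.5 mouse embryos. The genes were taken by symbol from the 13577 listed, and all 10 were found: the ligands *Tgfb1*, *Tgfb2*, *Tgfb3* and *Inhba*, the receptors *Tgfbr1*, *Tgfbr2* and *Tgfbr3*, the ligand trap *Fst*, and the signal transducers *Smad2* and *Smad3*. The 4 bulk RNA-Seq libraries comprised 2 titled control and 2 titled mutant. According to the study's methods, control embryos carried *P0-Cre* alone, whereas ca-*Acvr1(A11)* mutant embryos carried *P0-Cre* together with line A11, a transgene that encodes constitutively active ACVR1, a type I BMP receptor, once Cre has acted on its floxed allele. *P0-Cre* is active in neural crest cells, whereas the tissue as collected also holds epithelium, vessels, blood and neural cells. Both groups had a mixed genetic background. The genotype entries of the sample labels give the groups the other way round, so that every direction below follows the titles and would be the opposite if those entries were right. *Acvr1* was at 21.5 and 23.1 CPM in control and at 24.1 and 12.6 CPM in ca-*Acvr1(A11)* libraries, and since the sources used here do not give the 3′ end of the transgene transcript, this does not check the titles.

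TGF-β ligands are secreted as latent complexes, and once released they bind the type II receptor TGFBR2, which activates the type I receptor TGFBR1. Activins, of which *Inhba* encodes a subunit, act through their own type II and type I receptors, and follistatin, the product of *Fst*, binds activins and keeps them from their receptors. Both branches lead to phosphorylation of SMAD2 and SMAD3, while BMP receptors such as ACVR1 act on SMAD1, SMAD5 and SMAD9. In the face, TGF-β signaling to cranial neural crest cells (CNCCs) is known for its part in growth and fusion of the palate.

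The libraries held 1956831 and 2252586 reads in control and 2408827 and 2137027 reads in ca-*Acvr1(A11)* samples, and a single read corresponded to 0.415 to 0.511 CPM, the unit in which reads are scaled to the total of their library. Reads of this 3′ kit come from the end of a transcript, and a longer transcript does not give more of them, so levels of different genes were compared as CPM with no division by length. How fully the annotated 3′ end of each gene gathers its reads was not tested, which limits comparisons between genes. Of the markers of CNCC-derived mesenchyme, 14 of 14 were listed, and their summed level was 1827 and 2245 CPM in control against 1084 and 1144 CPM in ca-*Acvr1(A11)* libraries, with 10 of 14 lower at the threshold used here, an adjusted p of 0.05 in limma. The same count was 6 in DESeq2 and, with 1 library left out, 8 to 12. Summed epithelial markers were at 284 and 262 against 437 and 402 CPM, neural markers at 1617 and 1512 against 2019 and 2083 CPM, and macrophage markers at 55.7 and 56.8 against 93.4 and 139 CPM. Of all genes tested in limma, 0.305% passed higher and 0.594% lower, and 9.55% had an unadjusted p under 0.05. Of the epithelial, neural and macrophage markers, 7 of 12, 7 of 12 and 5 of 10 had an unadjusted p under 0.05. Of these, 2, 0 and 2 passed, all higher. In DESeq2 all 3 counts were 0, and with 1 library left out they were 0 to 4, 0 to 5 (5 without control replicate 1) and 0 to 3. Erythroid, endothelial and muscle lists, with 8 of 12, 12 of 12 and 5 of 10 markers listed, had 0 that passed (1 erythroid gene without control replicate 1) and 0, 0 and 1 at an unadjusted p under 0.05, and *Myod1* and *Myog*, the defining muscle factors, were not listed. In bulk tissue, fewer cells of a type and less RNA per cell cannot be told apart, and the part of these shifts in the values of the pathway genes was not tested.

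**Figure D1:**
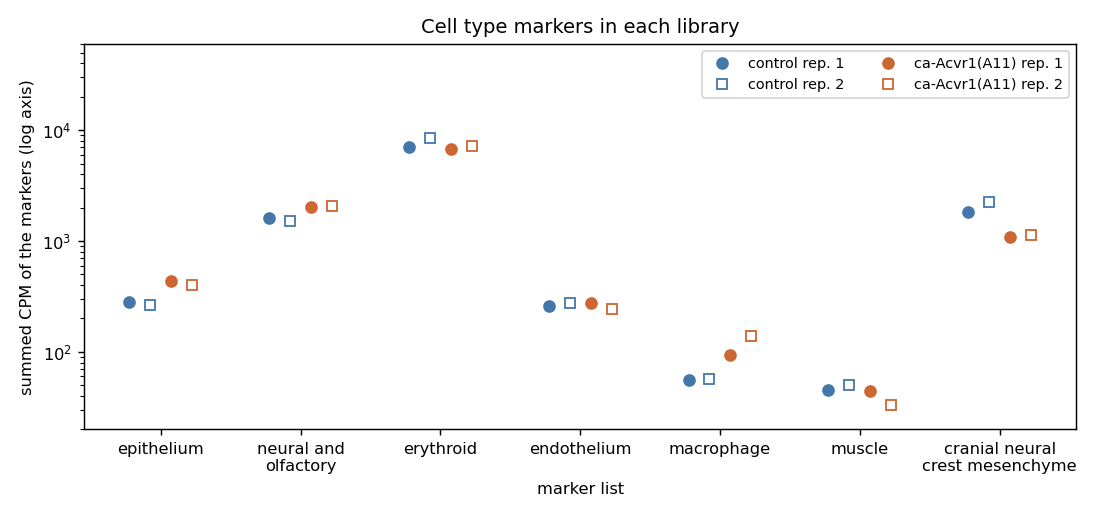
Summed CPM of marker genes of 7 cell types on a log axis, 1 point for each of the 4 libraries, with control in blue and ca-*Acvr1(A11)* in orange. The mesenchyme sums of 1827 and 2245 CPM in control lie above the 1084 and 1144 CPM of ca-*Acvr1(A11)* libraries, whereas epithelial, neural and macrophage sums lie below them.

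The promoters of *Tgfb2* and *Tgfb1* are shown because these were the TGF-β ligands with the most and the fewest reads. Each sequence holds the 250 bases before the gene's start, read 5′ to 3′ on the gene's strand from RefSeq's GRCm38.p6 entries. Capitals mark the TATA box core TATAAA, searched on the gene's strand, and the SMAD box CAGAC, searched on both strands, where it reads GTCTG on the other strand.
Tgfb2 (chr1:186705990-186706239, minus strand): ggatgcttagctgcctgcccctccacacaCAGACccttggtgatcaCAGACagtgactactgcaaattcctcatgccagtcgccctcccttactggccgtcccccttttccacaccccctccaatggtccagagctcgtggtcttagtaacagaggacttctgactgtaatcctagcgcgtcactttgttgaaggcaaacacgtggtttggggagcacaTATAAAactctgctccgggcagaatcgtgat
Tgfb1 (chr7:25686752-25687001, plus strand): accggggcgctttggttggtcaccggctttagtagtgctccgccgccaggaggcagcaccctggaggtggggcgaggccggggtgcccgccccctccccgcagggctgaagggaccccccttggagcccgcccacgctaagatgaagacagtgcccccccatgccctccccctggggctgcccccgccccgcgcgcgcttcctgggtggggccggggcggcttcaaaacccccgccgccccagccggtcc
The *Tgfb2* window had a GC content of 53.6%, a TATAAA beginning 31 bases before the start, and 2 SMAD boxes. The *Tgfb1* window had a GC content of 75.2% and neither motif. *Inhba*, a ligand likewise near the detection limit, differed from it. Its window, not shown, had a GC content of 43.2%, a TATAAA beginning 91 bases before the start and no SMAD box. Over 32851 promoter windows of this length the median GC content was 52.4%, 7.59% held TATAAA on the gene's strand and 42.2% held a SMAD box on either strand. RefSeq entries were found for 6 of the 10 genes, and a match of letters is a description of the sequence, not a site in use.

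The ligands differed widely in level. *Tgfb2* (chr1:186622792-186705989, minus strand, GRCm38) was at 35.8 and 56.8 CPM in control libraries and at 25.7 and 37.4 CPM in ca-*Acvr1(A11)* libraries, from 70, 128, 62 and 80 reads. The groups overlapped, because control replicate 1 lay below ca-*Acvr1(A11)* replicate 2. The control replicates themselves stood apart, with exact Poisson 95% counting intervals of 27.9 to 45.2 and 47.4 to 67.6 CPM. The means were 46.3 ± 14.9 and 31.6 ± 8.27 CPM (SD, n = 2 per group), and the log2 fold change, ca-*Acvr1(A11)* minus control on log2(CPM + 1), was −0.52 with a 95% interval of −0.996 to −0.05. This did not pass the threshold after adjustment over all 12462 genes tested (limma, unadjusted p = 0.0305, Benjamini-Hochberg adjusted p = 0.448). With 1 library left out the log2 fold change of *Tgfb2* was −0.85 without control replicate 1, −0.20 without control replicate 2, −0.26 without ca-*Acvr1(A11)* replicate 1 and −0.79 without ca-*Acvr1(A11)* replicate 2. Only the fit without control replicate 1 passed (adjusted p = 0.0188), and over the other alternatives the adjusted p ran from 0.225 to 1.00. That fit has 1 control library, assumed to vary like the ca-*Acvr1(A11)* libraries, and it called 240 genes higher and 225 lower of all genes, against 38 and 74 with all libraries.

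*Tgfb3* (chr12:86056745-86079041, minus strand), the ligand known for its requirement in palatal fusion, was at 8.18 and 6.22 CPM in control and at 2.08 and 3.74 CPM in ca-*Acvr1(A11)* libraries. Both ca-*Acvr1(A11)* values lay below both control values. These levels rested on 16, 14, 5 and 8 reads, and the ratio of summed reads after scaling to library totals was 0.401, with an exact 95% counting interval of 0.192 to 0.793. Against the spread of replicates the log2 fold change was −1.09 (standard error 0.41, 95% interval −1.93 to −0.26), the furthest from 0 among the 9 of these genes that were tested, and it did not pass (limma, unadjusted p = 0.0123, adjusted p = 0.322, and 0.193 to 1.00 over 15 alternatives). The last exon of *Tgfb3* is overlapped on the opposite strand by *Ttll5*, a gene at 22.5 and 26.6 against 25.3 and 22.9 CPM. The strand setting of the read counting is not given in the sources used here, so reads of the 2 genes there may not be separated.

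*Tgfb1* (chr7:25687002-25705077, plus strand) was represented by 1 and 0 reads in control and 2 and 0 reads in ca-*Acvr1(A11)* libraries. A count of 0 allows up to 1.33 CPM in control replicate 2 and 1.40 CPM in ca-*Acvr1(A11)* replicate 2, taking 3 reads as the limit of a count of 0 here and in the plots. The gene fell under the filter of a mean above 1 CPM, and with both groups at this limit no fold change was drawn. *Inhba* (chr13:16011851-16031621, plus strand) was at 0.511 and 1.33 CPM in control against 1.25 and 2.34 CPM in ca-*Acvr1(A11)* libraries, which is 1, 3, 3 and 5 reads. Its groups overlapped, and the ratio of summed reads was 1.85 with a counting interval of 0.496 to 8.40, so that a difference in either direction was not detectable at this depth (limma, adjusted p = 0.830). A gene model on the opposite strand, *Gm48444*, which the table does not list, overlaps the last exon of *Inhba*.

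**Figure D2:**
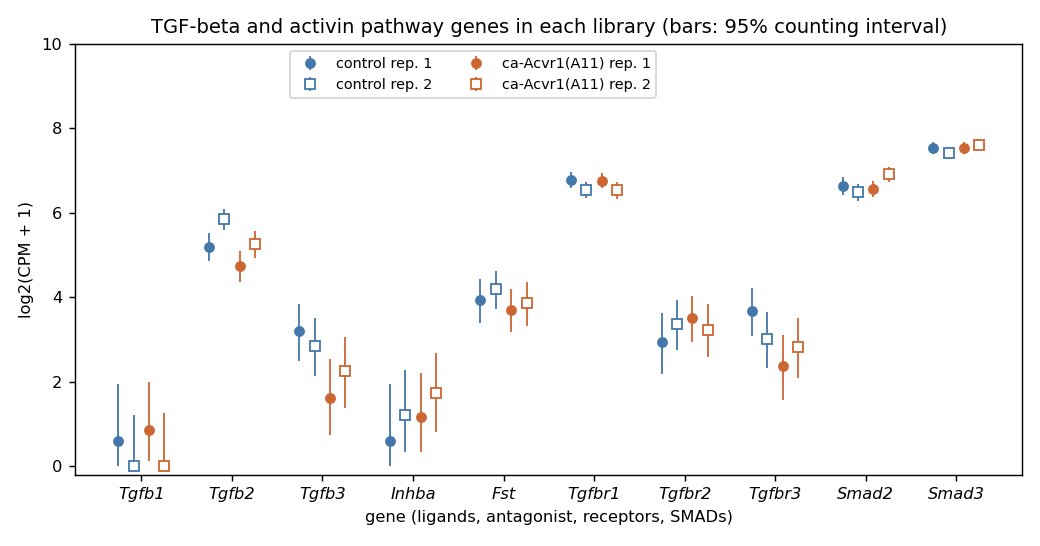
Level of each of the 10 genes as log2(CPM + 1), with 1 point per library, control in blue and ca-*Acvr1(A11)* in orange, and bars for the 95% counting interval of the reads, or up to 3 reads for a count of 0. *Smad3*, *Smad2* and *Tgfbr1* stand near 100 CPM or above in all 4 libraries, *Tgfb2* between 25.7 and 56.8 CPM, and *Inhba* and *Tgfb1* near 0, with wide bars below about 10 CPM.

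Among the reads of the 3 TGF-β ligands, *Tgfb2* made up 80.5% and 90.1% in control and 89.9% and 90.9% in ca-*Acvr1(A11)* libraries. *Tgfb3* made up 18.4% and 9.86% in control and 7.25% and 9.09% in ca-*Acvr1(A11)* libraries. The exact (Clopper-Pearson) 95% intervals of the *Tgfb3* share, which cover counting error only, ran from 10.9% to 28.1% in control replicate 1 and from 2.39% to 16.1% in ca-*Acvr1(A11)* replicate 1, and so overlapped. Both ca-*Acvr1(A11)* shares of *Tgfb3* lay below both control shares, and the difference between the groups was not tested. Summed over the 3 ligands, the level was 44.5 and 63.0 CPM in control against 28.6 and 41.2 CPM in ca-*Acvr1(A11)* libraries, with both ca-*Acvr1(A11)* values below both control values. An exact permutation test of 2 libraries against 2 cannot give a p below 0.333, and none was run on these sums.

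The receptors showed no shared direction. *Tgfbr1* (chr4:47353222-47414931, plus strand), the type I receptor, was at 109 and 92.3 CPM in control and at 108 and 92.2 CPM in ca-*Acvr1(A11)* libraries. The 2 groups covered nearly the same range. Their means were 101 ± 11.7 and 99.9 ± 10.8 CPM (SD, n = 2 per group), and the interval of the difference limited the fold on the CPM + 1 scale to between 0.790 and 1.25 (limma, adjusted p = 0.990). *Tgfbr2* (chr9:116084293-116175360, minus strand), the type II receptor that binds ligand first, was at 6.64 and 9.32 CPM in control and at 10.4 and 8.42 CPM in ca-*Acvr1(A11)* libraries. Its groups overlapped, and the fold lay between 0.722 and 1.88 (limma, adjusted p = 0.910).

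*Tgfbr3* (chr5:107106570-107289629, minus strand), which encodes betaglycan, a co-receptor that presents TGF-β2 to the signaling receptors, was at 11.8 and 7.10 CPM in control and at 4.15 and 6.08 CPM in ca-*Acvr1(A11)* libraries, from 23, 16, 10 and 13 reads. Both ca-*Acvr1(A11)* values were below both control values, with ca-*Acvr1(A11)* replicate 2 close to control replicate 2. The log2 fold change of −0.75 had a 95% interval of −1.51 to 0.01 and did not pass (limma, unadjusted p = 0.0523, adjusted p = 0.529). Of the reads of the 3 receptors, *Tgfbr1* took 85.5% and 84.9% in control and 88.1% and 86.4% in ca-*Acvr1(A11)* libraries, whereas *Tgfbr3* took 9.24% and 6.53% against 3.40% and 5.70%. The interval of the *Tgfbr3* share in control replicate 1, 5.95% to 13.5%, overlapped the 1.64% to 6.17% of ca-*Acvr1(A11)* replicate 1.

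*Fst* (chr13:114452290-114458951, minus strand) was at 14.3 and 17.3 CPM in control and at 12.0 and 13.6 CPM in ca-*Acvr1(A11)* libraries. The groups did not overlap, although the gap between control replicate 1 and ca-*Acvr1(A11)* replicate 2 was within their counting intervals of 9.51 to 20.7 and 9.09 to 19.5 CPM. Its log2 fold change was −0.28 with a 95% interval of −0.86 to 0.30 (limma, adjusted p = 0.839). In each library *Fst* had many more reads than *Inhba*, and its share of the reads of this pair was 96.6% and 92.9% in control and 90.6% and 85.3% in ca-*Acvr1(A11)* libraries.

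**Figure D3:**
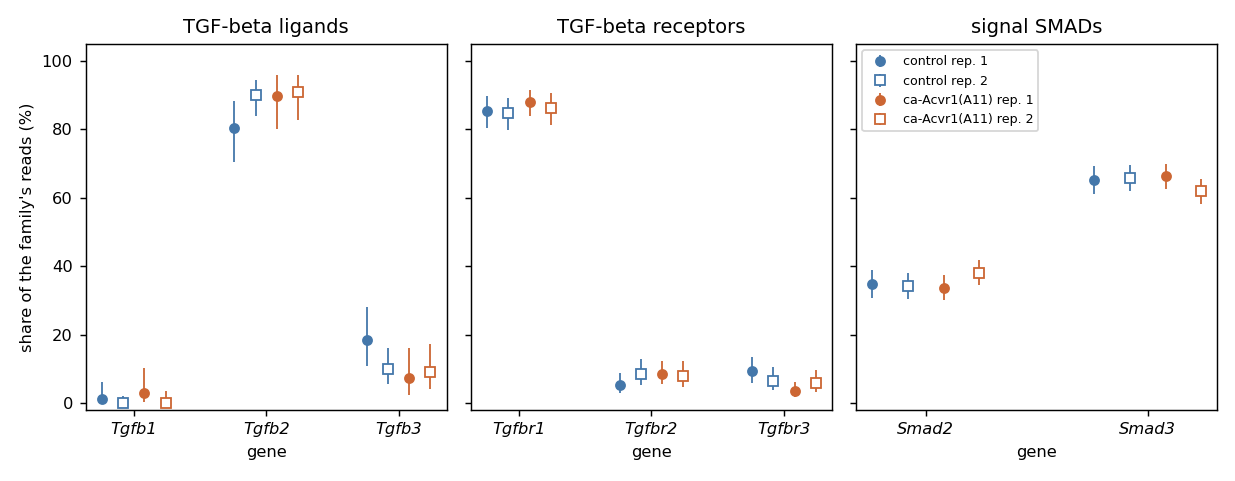
Share of each family's reads taken by each gene, in percent, for the 3 TGF-β ligands, the 3 receptors and the 2 SMADs, with 1 point per library and bars for the exact 95% binomial interval, or up to 3 reads for a count of 0. *Tgfb2* holds 80.5% to 90.9% of ligand reads, *Tgfbr1* 84.9% to 88.1% of receptor reads and *Smad3* 61.9% to 66.3% of the SMAD reads, with control in blue and ca-*Acvr1(A11)* in orange.

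The transducers were the most abundant of the 10 genes along with *Tgfbr1*. *Smad3* (chr9:63646767-63757994, minus strand) was at 185 and 171 CPM in control and at 185 and 196 CPM in ca-*Acvr1(A11)* libraries. The groups overlapped, with means of 178 ± 9.64 and 190 ± 7.68 CPM (SD, n = 2 per group). *Smad2* was at 98.6 and 88.8 CPM in control and at 93.8 and 120 CPM in ca-*Acvr1(A11)* libraries. Its groups overlapped too, and the highest value was that of ca-*Acvr1(A11)* replicate 2. The log2 fold changes were 0.09 with an interval of −0.20 to 0.38 for *Smad3* and 0.18 with an interval of −0.15 to 0.52 for *Smad2* (limma, adjusted p = 0.909 and 0.813). *Smad3*, with 362 to 445 reads per library, had the narrowest interval of the 9 genes, a fold on the CPM + 1 scale between 0.872 and 1.31. *Smad3* made up 65.2% and 65.9% of the reads of the 2 SMADs in control and 66.3% and 61.9% in ca-*Acvr1(A11)* libraries.

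In order of mean level over the 4 libraries, *Smad3* came first, followed by *Smad2*, *Tgfbr1*, *Tgfb2*, *Fst*, *Tgfbr2*, *Tgfbr3*, *Tgfb3*, *Inhba* and *Tgfb1*. Neighbors whose ranges over the libraries overlapped were *Smad2* and *Tgfbr1*, *Tgfbr2* and *Tgfbr3*, *Tgfbr3* and *Tgfb3*, *Tgfb3* and *Inhba*, and *Inhba* and *Tgfb1*. The type I receptor *Tgfbr1*, at 92.2 to 109 CPM, thus lay above the range of its type II partner *Tgfbr2*, at 6.64 to 10.4 CPM, in every library.

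**Figure D4:**
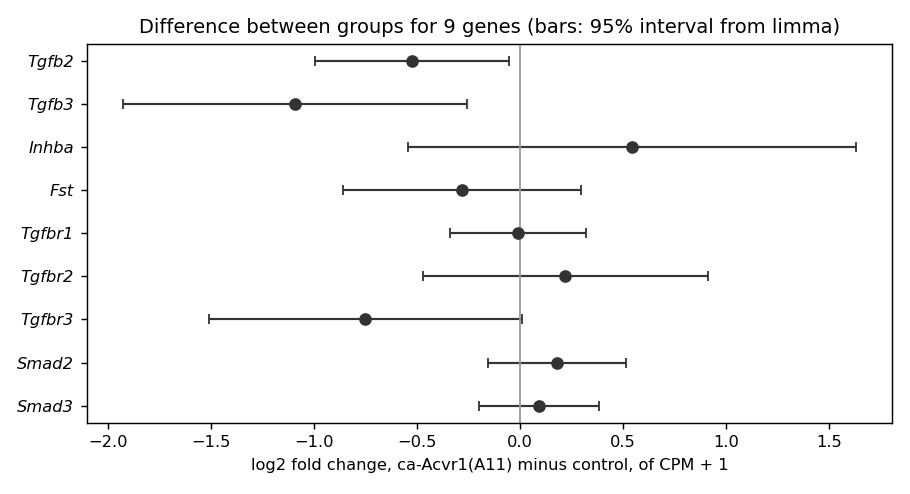
Log2 fold change of CPM + 1, ca-*Acvr1(A11)* minus control, for the 9 genes tested, with bars for the 95% interval from limma. The intervals of *Tgfb2* and *Tgfb3* lie below 0 before adjustment for the number of genes, that of *Tgfbr3* ends at 0.01, and the other 6 include 0.

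Of the 9 genes tested, 0 passed an adjusted p of 0.05 in limma, beside 0.899% of all genes (0.305% higher and 0.594% lower). At an unadjusted p under 0.05 there were 2, *Tgfb2* and *Tgfb3*, both lower, beside 9.55% of all genes (4.12% lower and 5.42% higher). edgeR's quasi-likelihood test and DESeq2 on the recovered reads each called 0 of the 8 genes they tested, with 3 and 0 at an unadjusted p under 0.05. Of all genes, 1020 of the 10168 tested in edgeR and 360 in DESeq2 had such a p. The groups did not overlap for 3 of 9 genes (*Tgfb3*, *Tgfbr3* and *Fst*), all lower in ca-*Acvr1(A11)* libraries, beside 38.8% of all genes (16.8% lower and 21.9% higher). The median log2 fold change of the 9 genes was −0.01, against 0.03 over all genes, with 4 above 0 and 5 below.

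The other components of the pathway were looked up by 83 symbols, older names included, of which 63 were listed and 60 tested. Of these, 1 passed, *Thbs1*, and it was lower, which is 1.67% beside the 0.899% of all genes. Their median log2 fold change was 0.02, with 31 above 0 and 29 below. edgeR called 3 of the pathway components, beside 39 higher and 94 lower of the 10168 genes it tested, and DESeq2 called 0. Neither gave an adjusted p for all 60. *Thbs1* encodes thrombospondin-1, an extracellular protein that can release TGF-β from its latent form. It was at 28.6 and 47.9 CPM in control and at 21.2 and 12.6 CPM in ca-*Acvr1(A11)* libraries, with no overlap (log2 fold change −1.13, standard error 0.27, limma adjusted p = 0.0330). The call was lost without control replicate 2 (adjusted p = 0.397), without ca-*Acvr1(A11)* replicate 2 (0.307), in DESeq2 (0.354) and with a pseudocount of 0.1 (0.0528). Over the omissions of 1 library, the log2 fold change of *Thbs1* ranged between −1.49 (control replicate 1 omitted) and −0.77 (control replicate 2 omitted).

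Of the 17 latency and activation genes tested, *Thbs1* was the 1 that passed, beside 0.899% of all genes. Of 7 other receptors and co-receptors, 0 passed in limma, with 1 at an unadjusted p under 0.05, beside 9.55% of all genes. *Acvr1c*, a type I receptor for activins and nodal, was at 1.02 and 1.78 CPM in control and at 4.15 and 5.15 CPM in ca-*Acvr1(A11)* libraries (log2 fold change 1.25, limma adjusted p = 0.308). *Acvr2b*, an activin type II receptor, was at 63.9 and 50.2 against 67.7 and 67.4 CPM (adjusted p = 0.726). Among the 3 other ligands tested, 0 passed, with 1 at an unadjusted p under 0.05, beside the same 9.55%. *Mstn*, encoding myostatin, was at 5.62 and 1.78 CPM in control and at 0.415 and 0.468 CPM in ca-*Acvr1(A11)* libraries, where each value is 1 read (limma, adjusted p = 0.252). *Gdf11* and *Inha* had adjusted p values of 0.944 and 0.955, and *Cd109* and *Tmem100*, from the list of receptors and co-receptors, 0.835 and 0.846.

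Of 7 extracellular inhibitors tested in limma beside *Fst*, 0 passed. In edgeR, which did not test *Fstl4*, 2 passed, beside 39 higher and 94 lower of the 10168 genes tested there. In limma 2 had an unadjusted p under 0.05, beside 9.55% of all genes. *Fstl1*, a follistatin-like protein of mesenchyme, came closest. It was at 198 and 251 CPM in control and at 139 and 164 CPM in ca-*Acvr1(A11)* libraries, with no overlap (log2 fold change −0.56, limma adjusted p = 0.0851), and it passed in 7 of 15 alternatives, among them the omission of control replicate 1 (adjusted p = 0.000913). *Emilin1*, whose product hinders processing of the TGF-β precursor, was at 17.9 and 30.2 against 8.72 and 13.1 CPM (log2 fold change −1.05, adjusted p = 0.110). It passed in 4 of 15 alternatives, which include the omission of control replicate 1 (adjusted p = 0.0020) and of ca-*Acvr1(A11)* replicate 2 (0.0202). *Vasn* and *Fstl4* had adjusted p values of 0.567 and 0.648.

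Of 26 intracellular transducers and regulators, 0 passed in limma or edgeR, with 3 in each at an unadjusted p under 0.05. This stands beside 9.55% of all genes in limma and 1020 of the 10168 genes tested in edgeR. *Tgif1*, encoding a corepressor of SMAD2 and SMAD3, was at 39.3 and 56.4 CPM in control and at 24.9 and 32.3 CPM in ca-*Acvr1(A11)* libraries (log2 fold change −0.71, limma adjusted p = 0.175, and 0.00579 without control replicate 1). The inhibitory SMADs are induced by their own pathways and limit them. *Smad7* was at 41.9 and 55.9 against 32.0 and 34.2 CPM (log2 fold change −0.54, adjusted p = 0.335), and *Smad6*, which mainly limits BMP signaling, at 38.3 and 44.8 against 28.2 and 30.9 CPM (−0.48, adjusted p = 0.441). For both, the 2 ca-*Acvr1(A11)* values lay below the 2 control values. *Tgif2* had an adjusted p of 0.581.

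Genes known to respond to TGF-β in various cell types were described as a further list, 32 symbols of which 28 were listed and 26 tested. Of these, 7 passed, 1 higher and 6 lower, which is 26.9% beside the 0.899% of all genes. Their median log2 fold change was −0.23. This list was written with earlier results of these data known, so its share is not independent evidence of a response. The list is not specific to the pathway. Nor is it separate from the lists above: 6 of the 26 are also among the pathway components, *Thbs1* included. *Cdkn1a*, encoding the cell cycle inhibitor p21 and also a well-known target of p53, was at 29.1 and 32.4 CPM in control and at 190 and 164 CPM in ca-*Acvr1(A11)* libraries (log2 fold change 2.48, standard error 0.17, limma adjusted p = 1.46e-10). It was the 1 gene of the 7 that was higher.

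The 6 lower genes were *Thbs1*, given above, and 5 that encode matrix proteins or a transcription factor of mesenchyme. *Tgfbi*, whose product is a secreted matrix protein named for its induction by TGF-β, was at 46.5 and 71.5 CPM in control and at 14.9 and 23.9 CPM in ca-*Acvr1(A11)* libraries (log2 fold change −1.56, limma adjusted p = 0.000397). *Col1a2*, a chain of type I collagen, was at 540 and 617 against 246 and 240 CPM (log2 fold change −1.25, adjusted p = 1.75e-06). *Snai2*, a transcription factor of neural crest and mesenchyme, was at 49.6 and 69.3 against 21.2 and 24.8 CPM (−1.32, adjusted p = 0.000687). *Cdkn1a*, *Tgfbi*, *Col1a2* and *Snai2* passed in all 15 alternatives.

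*Col1a1*, the other chain of type I collagen, was at 29.6 and 35.1 against 11.2 and 16.8 CPM (log2 fold change −1.17, limma adjusted p = 0.0171), and *Col3a1*, the chain of type III collagen, at 296 and 437 against 193 and 250 CPM (−0.71, adjusted p = 0.0271). Both lost the call without control replicate 2 (adjusted p = 0.0799 for *Col1a1* and 0.268 for *Col3a1*), without ca-*Acvr1(A11)* replicate 1 (0.177 and 0.332), and in DESeq2 (0.267 and 0.0598). With a pseudocount of 0.1 the adjusted p of *Col3a1* was 0.0539. Without control replicate 2, 4 of the 26 response genes passed. *Snai2* and *Col3a1* are also among the mesenchyme markers, whose sum was 1084 and 1144 CPM in ca-*Acvr1(A11)* libraries against 1827 and 2245 CPM in control, and the part of that shift in the lower response genes was not tested. The remaining 19 response genes did not pass.

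**Figure D5:**
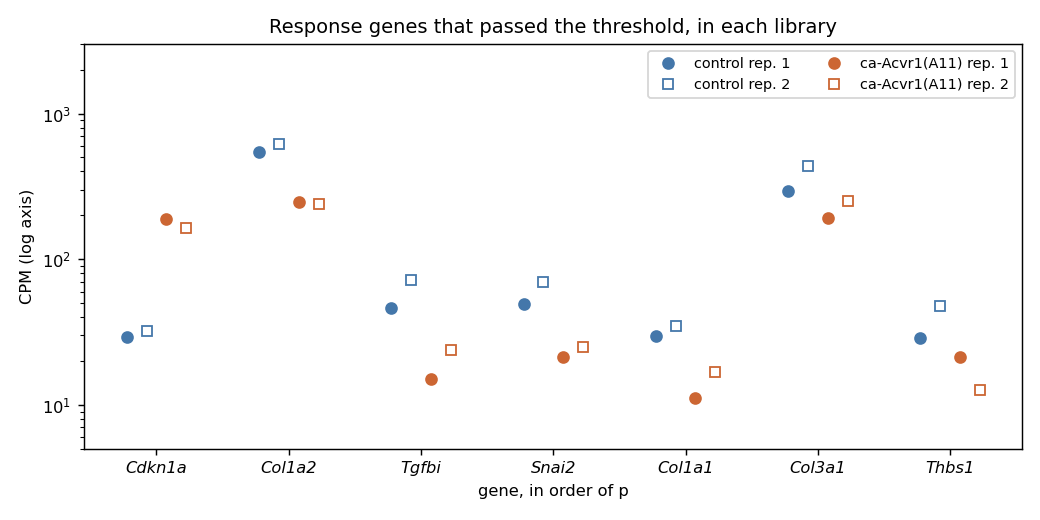
CPM on a log axis of the 7 TGF-β response genes that passed an adjusted p of 0.05 in limma, in order of p, with 1 point per library, control in blue and ca-*Acvr1(A11)* in orange. *Cdkn1a* is the 1 gene that is higher in ca-*Acvr1(A11)* libraries, at 190 and 164 CPM, and the other 6 are lower, without overlap between the groups.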

How the data were processed

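Total RNA of NP tissues was extracted with Trizol and made into libraries with the QuantSeq 3′ kit. The authors deposited 1 table of CPM values, scaled to library totals, for 13577 genes, each with at least 3 reads in total and reads in at least 2 libraries. The submitters' processing notes name STAR, featureCounts 1.6.4, DESeq2 and mm10, without their roles.

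Whole reads were recovered from the CPM steps for 99.92% of values (tolerance 0.02 reads). The other 43 values, in 22 genes, include 0 of the 10 genes and 0 of the pathway and response lists. Of the 43, 42 equal a whole-read value moved by a whole number of CPM, a match sought after the values had been seen. The mesenchyme marker *Pdgfra* is among the 22, with a move of 20 CPM in both ca-*Acvr1(A11)* libraries, and with whole-read values the mesenchyme sums were 1104 and 1164 CPM in ca-*Acvr1(A11)* libraries.

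Groups followed the titles. limma 3.58.1 was fitted on log2(CPM + 1) for the 12462 genes whose mean was over 1 CPM, with a trend of the variance on the mean, and p-values were adjusted by Benjamini-Hochberg (threshold 0.05). Since the values are CPM, count tests were alternatives only: edgeR 4.0.16, DESeq2 1.42.0 and limma-voom were run on the recovered reads. The fits were tested on simulated data with the same spread for all genes and changes only in genes with more reads. That test therefore does not cover genes near the detection limit. R was 4.3.3 and Python 3.11.15. The 4 libraries are not stated to be separate embryos, so p-values measure the spread between these libraries. Intervals of reads and shares cover counting error at 95% and assume independent molecules.

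The 10 genes and all lists were chosen with earlier results of these data known. Named with values were the 10 genes, *Acvr1*, and in each list every gene that passed or otherwise up to 4 genes with the smallest p. *Ttll5* and *Gm48444* were added because they overlap. Positions are from GENCODE's GRCm38 annotation. Alternatives were the pseudocount, the filter, the scaling, the tool, the replicate block, values as whole reads, and the omission of each library.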

Additional observations from a re-analysis of the deposited data

How the results depend on the processing

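Over 15 alternatives, 1 of 132 values of the 9 genes tested passed the threshold. It was that of *Tgfb2* without control replicate 1, a fit with 1 control library, at a log2 fold change of −0.85. *Tgfb1* is not among the 132 values, and *Inhba* had no adjusted p in DESeq2. *Tgfbr1* changed sign, to 0.11 when control replicate 1 and to 0.10 when ca-*Acvr1(A11)* replicate 2 was left out, both far from the threshold, with a range from −0.13 over the omissions. Among the other pathway and response genes given with values, the changes of sign were *Gdf11*, to 0.39 when control replicate 1 and to 0.01 when ca-*Acvr1(A11)* replicate 1 was left out (lowest −0.70), *Inha*, to 0.12 without control replicate 1 (lowest −0.49), and *Tmem100*, to 0.22 without ca-*Acvr1(A11)* replicate 1 (lowest −0.85). *Acvr1* went from −0.33 to 0.11 without ca-*Acvr1(A11)* replicate 2 (lowest −0.77), and *Ttll5* from −0.02 to 0.10 when control replicate 2 and to 0.05 when ca-*Acvr1(A11)* replicate 2 was left out (lowest −0.14). The difference in the *Smad3* share went from −1.43 to 0.771 percentage points without ca-*Acvr1(A11)* replicate 2, within the spread of replicates. The 38 genes called higher and 74 lower of all genes became 39 and 94 in edgeR, 8 and 31 in DESeq2, and 31 to 240 and 54 to 225 with 1 library left out, where the highest counts came without control replicate 1. The 1 other pathway gene called became 0 with a pseudocount of 0.1, 2 each with TMM, upper-quartile and RLE scaling, 3 in edgeR, 0 in DESeq2, 2 in limma-voom, and 0 to 4 with 1 library left out. The 7 response genes called became 4 in DESeq2 and 4 to 8 with 1 library left out. After values had been set to whole reads, 38 genes were called higher and 64 lower. A group left with 1 library is assumed to vary like the other group. The causes were not tested.

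Replicate numbers are shared by the groups in the titles alone, and same-numbered libraries deviated together with r = 0.107 across 9773 genes. The fit with a replicate block gave 97 genes higher and 132 lower, 4 other pathway genes and 0 of the 10 genes. Depth limits *Tgfb1* and *Inhba* most, with 0 to 5 reads per library.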
